A study of Mus musculus with 14 samples.

Results

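The genes described here write, copy and remove cytosine methylation in mouse DNA, together with a pair of proteins that methylated chromatin depends on: Dnmt1, Dnmt3a, Dnmt3b, Dnmt3l, Tet1, Tet2, Tet3, Uhrf1 and Smchd1. They were chosen by name, from their known function, and all 9 were found by Ensembl identifier among the 55416 rows of the count table. The series has 14 RNA-seq libraries from 3 mouse stem cell lines, each treated for 12 h with 50 µM STM2457, an inhibitor of the RNA methyltransferase METTL3, or with the solvent DMSO. XEN cells (extraembryonic endoderm stem cells, labelled wild type) gave 3 libraries per arm and were grown in DMEM with fetal bovine serum. TSC (trophoblast stem cells, labelled wild type) gave 2 libraries per arm and were grown with Fgf4 in RPMI conditioned by embryonic fibroblasts, and EpiSC (epiblast stem cells, genotype XmolXmus-<delta>Tsix) gave 2 per arm and were grown with Fgf2 and Activin A in knockout DMEM with serum replacement. Every line is a hybrid of Mus molossinus and Mus musculus. Each cell type was represented by 1 line, so line, genotype and medium cannot be told apart, and nothing in the labels says whether replicates are independent cultures; the p-values then cover sample-to-sample spread alone, which may be technical.

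In mammals, DNMT3A and DNMT3B place new methyl groups on cytosines that precede guanine (CpG sites), and DNMT3L, which has no catalytic activity of its own, stimulates them. After replication, UHRF1 recognises the half-methylated duplex and recruits DNMT1, which copies the mark to the new strand. The TET enzymes oxidise 5-methylcytosine, from which the unmodified base is restored by replication or by base excision repair. SMCHD1 is a chromatin protein of the inactive X chromosome and is needed there for the methylation of CpG islands. Extraembryonic lineages are known for less methylated genomes than the epiblast, and DNMT3L is known for its role in germ cells. The RNA of these genes was measured; the enzymes, their activity and DNA methylation were not.

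The promoters of the members differ in how many CpG sites they hold, the target of the enzymes themselves. The 250 bases upstream of a RefSeq transcription start (build GRCm38.p6) are shown for Uhrf1 and Smchd1, whose RNA was called lower with STM2457 over the 3 lines, and for Dnmt3l, which was almost silent in every library. They lie at chr17:56304063-56304312 (plus strand), chr17:71475344-71475593 (minus strand) and chr10:78049592-78049841 (plus strand), each outside annotated exons of its gene, and capitals mark each CpG.
Uhrf1: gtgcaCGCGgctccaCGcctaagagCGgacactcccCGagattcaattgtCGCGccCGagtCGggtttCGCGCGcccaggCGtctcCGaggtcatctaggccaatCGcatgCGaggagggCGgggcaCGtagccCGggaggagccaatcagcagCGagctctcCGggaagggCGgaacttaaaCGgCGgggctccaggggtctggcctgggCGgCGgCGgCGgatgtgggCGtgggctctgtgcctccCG
Smchd1: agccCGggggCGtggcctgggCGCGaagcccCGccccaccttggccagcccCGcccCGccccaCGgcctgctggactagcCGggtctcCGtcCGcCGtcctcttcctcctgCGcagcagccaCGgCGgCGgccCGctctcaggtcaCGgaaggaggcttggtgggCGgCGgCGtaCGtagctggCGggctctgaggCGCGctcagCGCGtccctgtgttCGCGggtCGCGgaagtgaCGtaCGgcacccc
Dnmt3l: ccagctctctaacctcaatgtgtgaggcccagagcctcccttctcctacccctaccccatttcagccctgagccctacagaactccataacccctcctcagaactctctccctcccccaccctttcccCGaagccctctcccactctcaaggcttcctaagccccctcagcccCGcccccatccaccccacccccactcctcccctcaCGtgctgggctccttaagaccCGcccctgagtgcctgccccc
These stretches hold 30, 33 and 4 CpG sites. Counted over the 300-base window that also takes in the first 50 transcribed bases, the median of 32851 windows of 27025 genes was 7 CpG. The richest window of each member held 57 for Tet2, 47 for Dnmt3a, 40 for Smchd1, 33 for Uhrf1, 33 for Dnmt1 and 30 for Dnmt3b. It held 22 for Tet3 and 17 for Tet1, against 6 for Dnmt3l, which has 3 annotated starts. The window with 6 belongs to another start of Dnmt3l than the stretch shown, whose window held 4. That median is over all windows, not over the richest of each gene. Poorer windows of Dnmt1 held 2 and 12 CpG, and of Uhrf1 12. As many CpG as in the window of Tet2 were found in 0.152% of all windows, and as many as in the richest window of Dnmt3l in 56.4%. Methylation of these promoters was not measured.

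Depth and library composition differed between the lines. Total counts were 6826496 to 10024628 in XEN, 17909934 to 20354242 in TSC and 18640099 to 21097380 in EpiSC. Mitochondrial and histone genes took 13.3 to 17.6% of counts in XEN and 1.03 to 1.46% elsewhere, while ribosomal protein genes took 2.76 to 3.72% in XEN and 6.25 to 8.5% elsewhere. Levels are therefore given as CPM, a count divided by the library total, multiplied by 1000000 and adjusted by TMM (a scaling that assumes that most genes do not differ), and each difference between XEN and another line is set beside a scaling to ribosomal protein genes. By the sums of the lists, each line carried the markers of its label. The XEN markers summed to 2721 to 3114 CPM in XEN and at most 40.9 elsewhere. The TSC markers reached 2964 to 3121 in TSC and at most 630 elsewhere. For the EpiSC markers the sums were 1231 to 1660 in EpiSC and at most 288 elsewhere. Single genes went the other way in DMSO. Krt8 of the TSC list was at 245 CPM in TSC, 338 in XEN and 414 in EpiSC. Sox2 of the EpiSC list was at 277 CPM in TSC and 80.3 in EpiSC. Mettl3, the target of the drug, stood at 26.3 to 57.6 CPM over all libraries; its RNA does not show whether the enzyme was inhibited. In bulk RNA, fewer cells of a type and less RNA per cell cannot be told apart.

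Per kb of exon sequence, the scale used to compare genes with each other, the maintenance pair and Dnmt3b led in every line. In DMSO, Dnmt1 stood at 30.0 ± 2.79 CPM per kb in XEN (mean ± SD, n = 3), 47.6 ± 2.8 in TSC and 45.2 ± 4.99 in EpiSC (n = 2 each). Uhrf1 stood at 23.4 ± 0.338, 47.5 ± 2.46 and 49.0 ± 0.568 CPM per kb, and Dnmt3b at 30.0 ± 3.33, 41.6 ± 2.0 and 43.4 ± 0.149. In TSC and EpiSC, Uhrf1 was within 1 SD of Dnmt1, by the SD of Dnmt1, as was Dnmt3b in XEN and in EpiSC. Smchd1 came next with 6.86 to 9.09 CPM per kb, on the group means in DMSO. Dnmt3a stood at 2.99 to 7.36 and the TET genes at 1.53 to 6.04 CPM per kb. In TSC, Tet1, Tet2 and Tet3 were at 1.89 ± 0.191, 1.94 ± 0.358 and 1.83 ± 0.0998. With the longest transcript in place of all exons as the length, Smchd1 stood at 19.4 to 25.8 CPM per kb and kept its place in the order of the means. In TSC, Tet1, Tet2 and Tet3 were then at 2.03, 3.57 and 2.81, so their near-equal means depended on the length used.

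Dnmt3l was the exception. It had 1 to 8 counts per library, or 0.0472 to 0.81 CPM, and did not reach the count minimum of the edgeR test. The sums over libraries were 10 counts in XEN with DMSO and 10 with STM2457, for TSC 16 and 5, and for EpiSC 4 and 5. The gene Aire overlaps 2.24% of its exon length on the opposite strand and had 106 counts in TSC and 40 in EpiSC with DMSO, and whether the counting used strand is unknown here. DESeq2, which kept the gene, called it lower in EpiSC than in XEN with DMSO (log2 fold change -2.39, adjusted p = 0.0433), from 4 counts against 10; it called 7 of 9 members in that comparison and 57.7% of the genes with an adjusted p. The remaining 8 members were tested by edgeR, among 18430 genes in all.

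**Figure D1:**
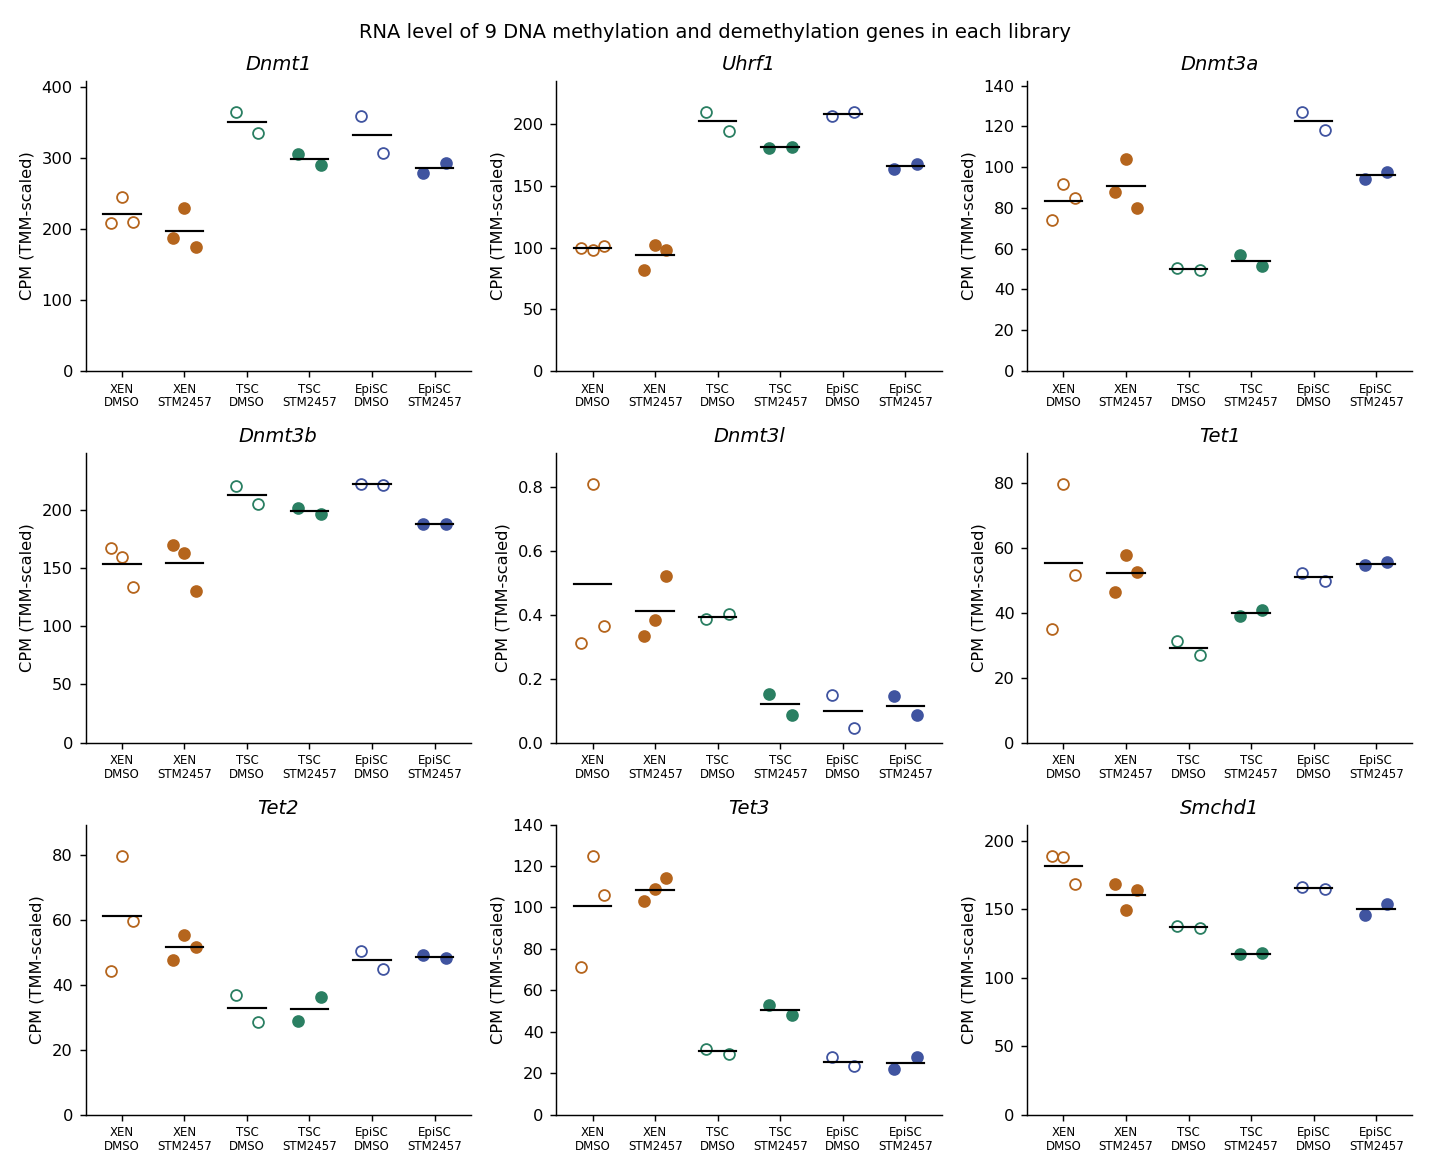
RNA level of each of the 9 genes in each of the 14 libraries, in TMM-scaled CPM on a linear axis that starts at 0 (each panel has its own axis). Open circles are DMSO, filled circles STM2457, colours the 3 lines and bars the group means. Uhrf1 and Dnmt1 were lowest in XEN, Tet3 was highest there, Dnmt3a was lowest in TSC, and Dnmt3l stayed at or below 0.81 CPM.

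The first comparison asked how the members differ between the lines without the drug. In TSC against XEN, 8 of 8 tested members were called by edgeR's quasi-likelihood test at a Benjamini-Hochberg adjusted p under 0.05, where 72.5% of all tested genes were called. Of them, 3 were higher (36.5% of all genes) and 5 lower (36.0%). In EpiSC against XEN, 5 of 8 were called, with a share of 71.7% among all genes, 4 of them higher (36.6% of all genes) and 1 lower (35.1%). In EpiSC against TSC, 4 of 8 were called, with a share of 54.4% among all genes, and all 4 were higher (27.4%). A call between lines was therefore the usual state of a tested gene, and the sizes below say more than the counts. The share of all genes whose libraries separate between lines was not counted.

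Uhrf1, the reader of half-methylated DNA, was at 99.5, 98.1 and 101 CPM in the XEN libraries with DMSO, with 210 and 195 for TSC and 207 and 210 for EpiSC. The XEN libraries lay below all others, and TSC and EpiSC overlapped. The log2 fold change was 1.02 ± 0.0994 (SE) for TSC over XEN and 1.07 ± 0.0994 for EpiSC over XEN (edgeR adjusted p = 9.62e-08 and 5.85e-08). Dnmt1, its catalytic partner, was at 208, 245 and 210 CPM in XEN, while TSC stood at 365 and 336 and EpiSC at 359 and 307. Here too XEN was lowest and the other lines overlapped, with log2 fold changes of 0.67 ± 0.122 and 0.59 ± 0.123 over XEN (edgeR adjusted p = 0.00012 and 0.000379).

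These directions depended on the scaling. With ribosomal protein genes as the reference, the median of all tested genes moved to -1.02 for TSC over XEN, -0.74 for EpiSC over XEN and 0.26 for EpiSC over TSC. Dnmt1 was then at -0.42 (edgeR adjusted p = 0.0567) for TSC and -0.22 (0.31) for EpiSC, and Uhrf1 at -0.05 (0.769) and 0.27 (0.109). Ratios of counts within a library are free of the scaling. Uhrf1 had 0.401 to 0.48 counts per Dnmt1 count in XEN with DMSO, 0.574 to 0.579 in TSC and 0.576 to 0.684 in EpiSC, so the XEN libraries had fewer Uhrf1 counts per Dnmt1 count. The ratio does not show whether either gene was lower in XEN.

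Dnmt3a, one of the enzymes of new methylation, set the lines apart further. It was at 74.3, 91.5 and 85.0 CPM in XEN, while TSC stood at 50.3 and 49.3 and EpiSC at 127 and 118 with DMSO, and no 2 lines overlapped. The log2 fold change of EpiSC over TSC was 1.30 ± 0.13 (edgeR adjusted p = 2.36e-07), or 2.46-fold, and 1.58 (1.01e-05) with the ribosomal scaling. TSC was below XEN by -0.75 ± 0.122 on the log2 scale (edgeR adjusted p = 3.57e-05), and by -1.84 (4.9e-07) under the ribosomal scaling. EpiSC was above XEN by 0.55 ± 0.117 (edgeR adjusted p = 0.000471), but at -0.26 (0.233) with the ribosomal scaling.

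Dnmt3b, the other enzyme of this kind, was at 167, 159 and 134 CPM in XEN, while TSC stood at 220 and 205 and EpiSC at 222 and 221. The EpiSC libraries lay just above those of TSC, and the difference was not called (edgeR adjusted p = 0.74). It was 0.06 on the log2 scale, with a 95% interval of -0.21 to 0.33. TSC and EpiSC were each called above XEN, by 0.47 ± 0.118 and 0.53 ± 0.118 (edgeR adjusted p = 0.00186 and 0.000714). With the ribosomal scaling the first turned to -0.61 and was called lower (edgeR adjusted p = 0.00624), and the second was at -0.27 (0.187).

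The balance between the DNMT3 enzymes needs no scaling. TSC had 4.17 and 4.37 Dnmt3b counts per Dnmt3a count with DMSO, against 1.58 to 2.25 in XEN and 1.74 and 1.88 in EpiSC. Per kb, Dnmt3b made up 93.0 ± 0.232% of the summed DNMT3 level in TSC, 85.2 ± 2.29% in XEN and 85.4 ± 0.683% in EpiSC. XEN and EpiSC overlapped, and TSC stood apart from both. With STM2457 the ratio was 3.54 and 3.81 in TSC, below both DMSO libraries, and 1.92 and 1.99 in EpiSC, above both; in XEN the arms overlapped at 1.57 to 1.93 with the drug. These ratios were not tested.

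Tet3 was the member with the largest difference between lines on the log2 scale. It was at 71.1, 125 and 106 CPM in XEN with DMSO, while TSC stood at 31.8 and 29.4 and EpiSC at 27.6 and 23.3. The lowest XEN library was above every TSC and EpiSC library. The log2 fold change was -1.72 ± 0.187 for TSC and -1.98 ± 0.19 for EpiSC over XEN (edgeR adjusted p = 6.76e-07 and 1.59e-07), a 3.29-fold and a 3.96-fold lower level. It kept its sign with the ribosomal scaling, at -2.83 and -2.82, and when each DMSO library was left out, with values from -1.92 to -1.54 and from -2.18 to -1.81.

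Tet1 was at 35.2, 79.8 and 51.6 CPM in XEN, while TSC stood at 31.3 and 27.1 and EpiSC at 52.3 and 50.0. Tet2 was at 44.2, 79.8 and 59.6 CPM in XEN, while TSC stood at 37.0 and 28.5 and EpiSC at 50.5 and 44.9. In CPM both were lowest in TSC and overlapped between XEN and EpiSC. TSC was below XEN by -0.92 ± 0.237 for Tet1 and -0.90 ± 0.192 for Tet2 (edgeR adjusted p = 0.00329 and 0.000617), and EpiSC was above TSC by 0.81 ± 0.248 and 0.54 ± 0.202 (0.014 and 0.0332). With the ribosomal scaling, TSC was below XEN by -2.06 for Tet1 and -2.01 for Tet2 (edgeR adjusted p = 0.000133 and 2.35e-05). EpiSC was then also called below XEN, by -0.97 and -1.20 (edgeR adjusted p = 0.0184 and 0.00172). The calls of EpiSC over TSC rested on single libraries: Tet1 was not called without the second TSC or the first EpiSC library, and Tet2 was called only without the first TSC library.

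All 3 TET genes were lowest in the first and highest in the second XEN library with DMSO. Without that first library the TSC over XEN difference of Tet1 was -1.17 and without the second it was -0.59; Tet2 moved from -1.09 to -0.68 in the same way, and each stayed called. In EpiSC over XEN, Tet2 became called lower without the first library, at -0.55. Xist varied in the same direction over these libraries, from 912 to 2012 CPM, and its part in this spread was not tested.

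The TET genes therefore changed rank between lines. Of the summed TET level per kb, Tet3 made up 45.9 ± 2.47% in XEN, 32.5 ± 1.96% in TSC and 19.9 ± 1.02% in EpiSC with DMSO, in 3 ranges that did not overlap. Tet1 made up 26.6 ± 2.65%, 33.4 ± 0.449% and 43.2 ± 1.57%, in the opposite order. Tet2 made up 27.5 ± 0.962%, 34.1 ± 2.41% and 36.9 ± 0.553%, in the same order as Tet1 and also without overlap. With the length of the longest transcript, Tet2 made up 46.8% in EpiSC and Tet1 32.1%, so the leading TET gene there depended on the length used. In counts, Tet3 over Uhrf1 was 0.715 to 1.28 in XEN, against 0.151 and 0.152 for TSC and 0.111 and 0.134 for EpiSC, with every XEN library above the others. That ratio needs no scaling.

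**Figure D2:**
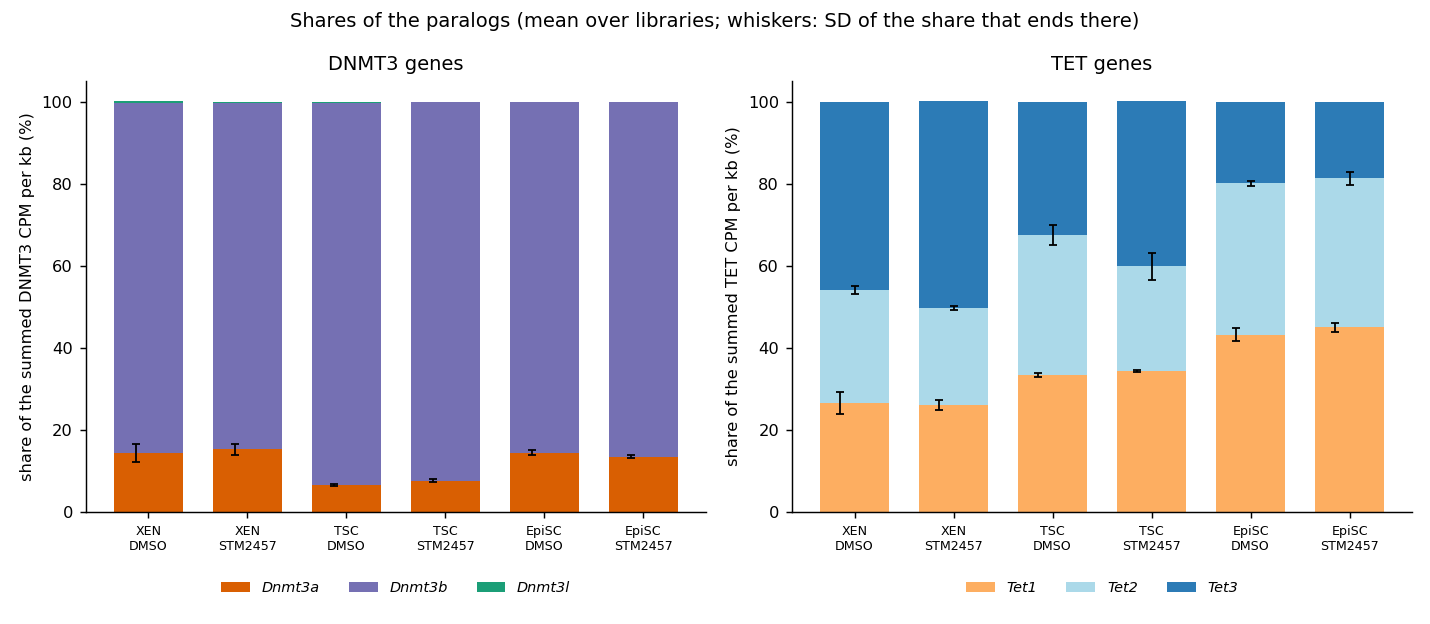
Share of each paralog in the summed level per kb of exon of the DNMT3 genes (left) and the TET genes (right), in percent, as the mean over the libraries of each group, with the SD as whiskers. Dnmt3b took 93.0% in TSC with DMSO, while Tet3 took 45.9% in XEN and 19.9% in EpiSC and Tet1 26.6% and 43.2%.

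Smchd1, the chromatin protein of the inactive X, differed less between lines with TMM than with the ribosomal scaling. It was at 189, 188 and 168 CPM in XEN with DMSO, while TSC stood at 138 and 136 and EpiSC at 166 and 165. TSC was lowest, by -0.41 ± 0.0961 against XEN (edgeR adjusted p = 0.00119) and by -1.49 (4.13e-07) with the ribosomal scaling, and EpiSC was above TSC by 0.28 ± 0.103 (0.0326). The second call was lost when any of the 4 TSC and EpiSC libraries with DMSO was left out. EpiSC against XEN was not called at -0.13 ± 0.0953 (edgeR adjusted p = 0.229) and was called lower with the ribosomal scaling, at -0.93 (6.53e-05), and by DESeq2, at -0.19 (adjusted p = 0.0253). Xist, the RNA that coats the inactive X, was present in all libraries at 676 to 2012 CPM.

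**Figure D3:**
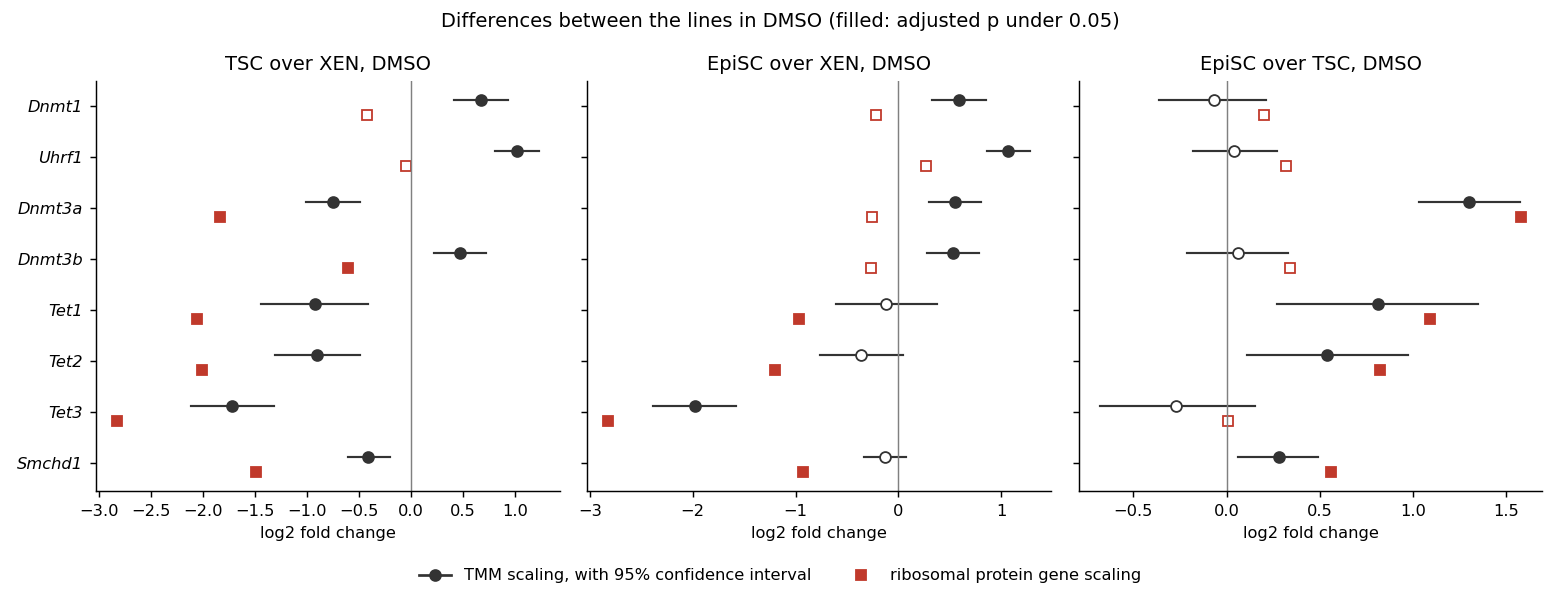
Differences between the lines in DMSO for the 8 tested genes, as log2 fold change, with TMM scaling (circles, with 95% confidence intervals) and with scaling to ribosomal protein genes (squares); filled symbols have an adjusted p under 0.05. Tet3 lies far to the left against XEN under both scalings, Dnmt3a to the right in EpiSC over TSC under both, and Dnmt1 and Dnmt3b change sign against XEN.

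Markers of other cells moved with the lines. The summed level of 7 fibroblast markers was 5.0 to 8.58 CPM in XEN with DMSO, 14.6 to 15.5 in TSC and 53.0 to 59.5 in EpiSC. Lum was at 0 counts in all 3 lines, Col3a1 in XEN and TSC, Thy1 in XEN and Postn in TSC. Col1a1, the collagen gene that led this sum in EpiSC, was at 27.1 CPM there. Col1a2, Col3a1 and Postn were likewise highest in EpiSC. Pdgfrb was not: its mean with DMSO was lowest there (4.67 CPM, against 6.52 for XEN and 11.8 for TSC). It made up most of the sum in XEN and TSC. Thy1 was also no higher in EpiSC than in TSC (means of 1.39 and 1.49 CPM). The sums of the lines were therefore carried by different genes. Differentiated trophoblast markers summed to at most 1.84 CPM in any library. The part of such cells in the differences between lines was not tested.

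The second comparison asked what 12 h of METTL3 inhibition did to these RNAs. In the edgeR fit of all 14 libraries, none of the 8 tested members was called in any line. In XEN the count was 0 of 8 where 4.15% of all tested genes were called, in TSC 0 of 8 where 0.966% were, and in EpiSC 0 of 8 where 1.68% were. At an unadjusted p under 0.05 the numbers were 0, 2 and 2 of 8. DESeq2 called 1 member in each line: Smchd1 in XEN (adjusted p = 0.0496), Tet3 in TSC (0.0207) and Uhrf1 in EpiSC (0.00861). It called 12.4%, 7.55% and 9.14% of the genes to which it gave an adjusted p in XEN, TSC and EpiSC, so 1 of 8 was near that background. The median log2 fold change of the 8 was -0.08 in XEN, -0.05 in TSC and -0.18 in EpiSC, against 0.00 over all tested genes in each line. The edgeR fit takes 1 spread per gene from all groups, and XEN replicates differed more from each other than those of TSC or EpiSC. A fit of TSC alone called Tet3 (0.73), Tet1 (0.46), Dnmt1 (-0.22) and Smchd1 (-0.21), beside 4378 of 14515 genes. A fit of EpiSC alone called Dnmt3a (-0.36), Uhrf1 (-0.34), Dnmt3b (-0.25) and Dnmt1 (-0.23), beside 4321 of 14800.

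For the effect averaged over the 3 lines, 2 of 8 members were called, both lower, where 13.4% of all tested genes were called and 5.62% called lower. Uhrf1 changed by -0.19 ± 0.0596 (edgeR adjusted p = 0.044), to 0.877 of its DMSO level. Smchd1 changed by -0.18 ± 0.0566 (edgeR adjusted p = 0.0432), to 0.882 of it. Both calls sat near the threshold. They were absent with the ribosomal scaling, at -0.12 (edgeR adjusted p = 0.519) and -0.11 (0.576), and with no filter on low counts (0.115 and 0.142).

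A single library could end them. Leaving out any of the 8 TSC and EpiSC libraries ended both calls. Among XEN libraries, the Uhrf1 call ended without the first STM2457 or the third DMSO library, and the Smchd1 call without the second STM2457 library. Over all such fits the values stayed between -0.21 and -0.16 for Uhrf1 and between -0.20 and -0.16 for Smchd1. Where the XEN libraries were blocked by replicate number, an alternative added after the data were seen, 5 of 8 were called, where 28.7% of all tested genes were: Dnmt1 at -0.21 (edgeR adjusted p = 0.000589), Uhrf1 at -0.19 (0.000848), Smchd1 at -0.18 (0.00125), Tet3 at 0.28 (0.0193) and Dnmt3b at -0.11 (0.0385).

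**Figure D4:**
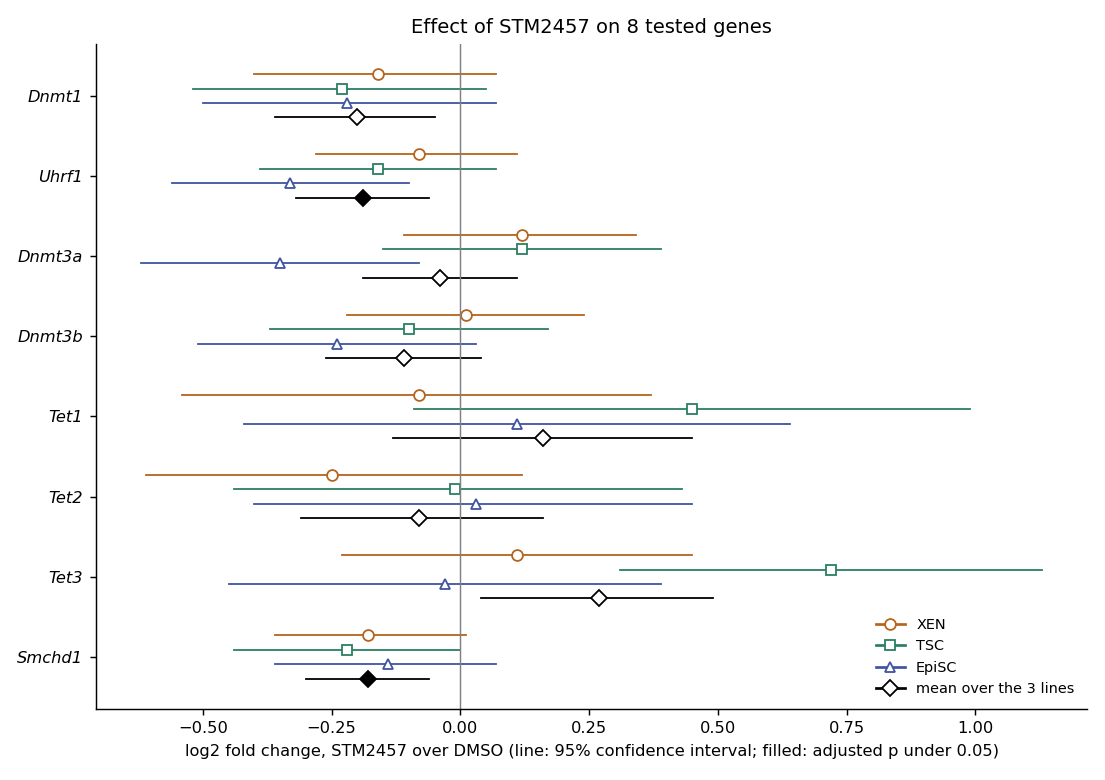
Effect of STM2457 on the 8 tested genes as log2 fold change over DMSO, with 95% confidence intervals, for each line and for the mean over the 3 lines; filled symbols have an adjusted p under 0.05. Only the means of Uhrf1 and Smchd1 are filled, the interval of Tet3 in TSC lies wholly above 0, and those of Uhrf1 and Dnmt3a in EpiSC lie wholly below 0.

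By role, the maintenance pair was lower with the drug in each line on the mean, without a call in any line in the edgeR fit of all libraries. Uhrf1 with STM2457 was at 82.2, 102 and 98.0 CPM in XEN, overlapping DMSO, against 181 and 182 for TSC and 164 and 168 for EpiSC. In TSC and EpiSC both treated libraries lay below both DMSO libraries. With 2 libraries per arm, arms often separate where nothing changed, and the share of all genes that separate was not counted. This limit holds for every member. For Uhrf1 the differences were -0.08 ± 0.0922, -0.16 ± 0.108 and -0.33 ± 0.108 on the log2 scale (edgeR adjusted p = 0.726, 0.583 and 0.148). Dnmt1 with STM2457 was at 187, 230 and 175 CPM in XEN, while TSC stood at 306 and 291 and EpiSC at 279 and 293. It too overlapped DMSO in XEN, with the libraries taken as groups, and lay below it in the other lines. The differences were -0.16, -0.23 and -0.22 (edgeR adjusted p = 0.522, 0.496 and 0.483), and -0.20 ± 0.0736 for the mean (0.0808). Paired by replicate number, the XEN libraries with STM2457 were each below DMSO for Dnmt1: 187 against 208, 230 against 245 and 175 against 210. For Uhrf1 the second pair went the other way. No member was called in XEN with the number as a block.

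The enzymes of new methylation stayed near their DMSO levels in XEN and TSC, though in TSC the arms did not overlap. There Dnmt3a was higher with the drug, by 0.12 on the log2 scale, and Dnmt3b lower. Dnmt3a with STM2457 was at 88.0, 104 and 80.1 CPM in XEN, while TSC stood at 56.8 and 51.4 and EpiSC at 94.2 and 97.7. In EpiSC both treated libraries lay below both DMSO libraries, by -0.35 ± 0.127, with a 95% interval of -0.62 to -0.08 (unadjusted p = 0.0131 and adjusted p = 0.182 by edgeR). Dnmt3b in EpiSC was at 188 CPM in both treated libraries against 222 and 221, a difference of -0.24 ± 0.129 (edgeR adjusted p = 0.411), and its log2 differences in XEN and TSC were 0.01 and -0.10. With the XEN libraries blocked, Dnmt3a (edgeR adjusted p = 0.0024), Uhrf1 (0.00266) and Dnmt3b (0.0214) were called lower in EpiSC, where that fit called 17.2% of all genes.

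Markers of the epiblast state are given beside these values. The summed EpiSC markers were at 1583 to 1660 CPM with DMSO and 1231 to 1285 with STM2457; of their 7 genes, 1 was called, Lefty1, which fell from 544 to 326 CPM (log2 fold change -0.74, edgeR adjusted p = 0.0234) and was not called with the ribosomal scaling (-0.61, 0.205). Without a call, Pou5f1 was at 728 and 558 CPM, Otx2 at 41.3 and 32.9 and Fgf5 at 49.3 and 83.0, while Sox2 (80.3 and 77.7), Nanog (53.6 and 54.7) and Nodal (124 and 125) had nearly equal means. Mesoderm markers summed to 43.4 to 47.0 and 25.3 to 34.1 CPM, and fibroblast markers to 53.0 to 59.5 and 46.3 to 48.4. The part of a shift between cell states or of fibroblasts in the members' values was not tested.

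Among the demethylation genes, Tet3 in TSC showed the largest effect of any tested member in any line. It went from 31.8 and 29.4 CPM with DMSO to 52.7 and 48.3 with STM2457, and the arms did not overlap. The log2 fold change was 0.72 ± 0.194, 1.65-fold, with a 95% interval of 0.31 to 1.13. The unadjusted p was 0.00203 and the adjusted p 0.101 by edgeR. The call depended on the fit. By edgeR the adjusted p was 0.00109 with no filter on low counts and 0.00415 with the XEN libraries blocked. In a fit of TSC alone, which called 4378 of 14515 genes, it was 1.18e-06. With other size factors it was 0.0977, and with the ribosomal scaling 0.241, where the log2 fold change was 0.86. With each TSC library left out in turn, which leaves 1 library alone in its arm, the log2 fold change ran from 0.66 to 0.78.

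Within the TET family the shift in TSC needed no scaling. Tet3 counts per Tet2 count went from 0.859 and 1.03 to 1.34 and 1.82, and per Uhrf1 count from 0.151 and 0.152 to 0.265 and 0.291. Per Tet1 count they moved less, from 1.02 and 1.09 to 1.18 and 1.35. Tet1 per Tet2 also rose, from 0.846 and 0.952 to 1.13 and 1.34. Tet3 per Tet2 rose without overlap in XEN too, from 1.57 to 1.78 with DMSO to 1.98 to 2.21. In EpiSC that ratio overlapped. The Tet3 share of the TET level per kb in TSC was 32.5 ± 1.96% with DMSO and 40.2 ± 3.52% with STM2457. In XEN the share was 45.9 ± 2.47% and 50.4 ± 1.79%, and in EpiSC 19.9 ± 1.02% and 18.7 ± 2.61%, and the arms overlapped in EpiSC only.

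Tet1 in TSC went from 31.3 and 27.1 to 39.0 and 40.9 CPM, by 0.45 ± 0.248 (edgeR adjusted p = 0.478). Tet1 in EpiSC was at 54.8 and 55.6 CPM with STM2457, above both DMSO libraries by a log2 difference of 0.11, and in XEN it overlapped DMSO at 46.5, 57.8 and 52.7. Tet2 overlapped DMSO in every line: it was at 47.6, 55.3 and 51.7 CPM with STM2457 in XEN, while TSC stood at 29.0 and 36.1 and EpiSC at 49.1 and 48.2. Tet3 with STM2457 was at 103, 109 and 114 CPM in XEN and 21.8 and 27.9 in EpiSC, overlapping DMSO in both. With the XEN libraries blocked, Tet1 (edgeR adjusted p = 0.0125) was called in TSC beside Tet3, and Smchd1 (0.0475) was called lower, where that fit called 15.4% of all genes.

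Smchd1 with STM2457 was at 168, 149 and 164 CPM in XEN, while TSC stood at 117 and 118 and EpiSC at 146 and 154. Treated libraries lay below DMSO in TSC and EpiSC and, taken as groups, overlapped it by a narrow margin in XEN. Paired by replicate number, each XEN library with the drug was below DMSO: 168 against 189, 149 against 188 and 164 against 168. The differences, -0.18 ± 0.0859, -0.22 ± 0.104 and -0.14 ± 0.103 on the log2 scale, were each without a call (edgeR adjusted p = 0.309, 0.363 and 0.558), and no difference between 2 of these line effects exceeded 0.08.

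Whether the drug acted differently between lines was tested as the difference of 2 line effects. None of the 8 members was called in the 3 such comparisons, where 0.00543%, 0.0109% and 0.00543% of all tested genes were called for TSC minus XEN, EpiSC minus XEN and EpiSC minus TSC. At an unadjusted p under 0.05 the numbers were 1, 1 and 2 of 8, and DESeq2 also called none, with 0.227%, 0.372% and 0.172% of the genes to which it gave an adjusted p. Tet3 differed by 0.61 ± 0.25 for TSC minus XEN (edgeR unadjusted p = 0.0272, adjusted p = 0.976) and by -0.76 ± 0.277 for EpiSC minus TSC (0.0154 and 1.0). Dnmt3a differed by -0.47 ± 0.167 for EpiSC minus XEN (0.0124 and 0.743) and by -0.47 ± 0.181 for EpiSC minus TSC (0.0185 and 1.0). With the XEN libraries blocked, both Dnmt3a differences were called (edgeR adjusted p = 0.0216 and 0.0358), where that fit called 2.18% and 1.49% of all genes.

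Genes that work with the members were taken from 7 lists, each described by its counts beside all genes. With STM2457, 3.07% of all tested genes were called higher and 1.07% lower in XEN. In TSC these shares were 0.836% and 0.13%, and in EpiSC 1.28% and 0.402%. Counts of 1 in a list are a description beside these shares. The first list holds proteins of the methyl-CpG-binding-domain family and readers of methylated DNA. Of its 9 tested genes, 1 was higher in XEN with STM2457 and 1 in EpiSC. In TSC 0 were called (4 at an unadjusted p under 0.05, 2 by DESeq2). Mbd3, a subunit of the NuRD chromatin remodeller, rose in XEN from 34.1 ± 3.96 to 51.7 ± 14.2 CPM, by 0.61 ± 0.152 on the log2 scale (edgeR adjusted p = 0.0335). Zbtb38, a zinc finger reader of methylated DNA, rose in EpiSC from 10.8 ± 0.703 to 17.9 ± 0.407 CPM, by 0.73 ± 0.179 (0.0495). Both were called higher in the mean over the lines, at 0.46 and 0.60 (0.00402 and 0.000843), and there also with the ribosomal scaling. The calls in single lines were lost under that scaling (edgeR adjusted p = 0.286 for Mbd3 and 0.0897 for Zbtb38). That of Zbtb38 was also lost with RLE size factors and without mitochondrial and histone genes.

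Of 22 tested partners of the DNMTs and of heterochromatin, 1 was higher in XEN, 1 higher in TSC, and 1 higher and 1 lower in EpiSC. Setd2, the histone methyltransferase whose H3K36 mark is read by DNMT3 enzymes, rose in TSC from 191 ± 8.11 to 273 ± 6.55 CPM and in EpiSC from 151 ± 11.6 to 215 ± 12.7, by 0.51 ± 0.112 in each (edgeR adjusted p = 0.0356 and 0.0283). Setdb1, an H3K9 methyltransferase, rose in XEN from 81.8 ± 7.1 to 104 ± 3.71 CPM, by 0.34 ± 0.0907 (0.0413). Trim28, the corepressor that recruits it, fell in EpiSC from 784 ± 8.01 to 564 ± 30.5 CPM, by 0.48 ± 0.111 (0.039). With the ribosomal scaling none of these 22 was called in a single line, and the XEN call was also lost with RLE size factors.

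Of 18 tested TET partners and base excision genes, 1 was higher in XEN and 1 in TSC, the same gene. Apex1, the endonuclease that cuts the abasic site after a modified base is removed, rose from 82.6 ± 16.4 to 139 ± 10.4 CPM in XEN and from 75.0 ± 5.46 to 116 ± 6.03 in TSC. The log2 fold changes were 0.75 ± 0.122 and 0.63 ± 0.145 (edgeR adjusted p = 0.00237 and 0.0469), and both remained called with the ribosomal scaling. Of 14 tested genes of the methyl donor cycle, 1 was lower in XEN: Mat2b, the regulatory subunit of the enzyme that makes S-adenosylmethionine, by -0.33 ± 0.0914 (0.0498), a call lost with the ribosomal scaling (-0.38, 0.228). None of 7 genes that supply 2-oxoglutarate, the co-substrate of the TET enzymes, was called in a single line by edgeR or DESeq2, and 0 had an unadjusted p under 0.05.

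Because Uhrf1 and Dnmt1 are expressed most in S phase, 25 S phase genes were set beside them. With STM2457 they gave 4 higher and 0 lower in XEN and 0 called in TSC and EpiSC (4 and 6 at an unadjusted p under 0.05, 2 and 5 by DESeq2), with median log2 fold changes of -0.02, -0.07 and -0.03. The 4 were Fen1, Chaf1b, Chaf1a and Tk1, at 0.48 to 0.68 on the log2 scale. With the ribosomal scaling 1 of them, Fen1, was still called. In DMSO, 16 were higher and 5 lower in TSC than in XEN, and 17 higher and 2 lower in EpiSC. Among all genes 36.5% were higher and 36.0% lower in TSC, and 36.6% and 35.1% in EpiSC. With the ribosomal scaling these counts turned to 2 higher and 12 lower in TSC and 4 and 9 in EpiSC.

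A readout of methylation itself was not part of the series, but genes kept silent by promoter methylation in somatic cells are known. Of 18 such germline genes, 11 passed the count minimum; most passed it through TSC, so the direction of those differences was set by the filter and is given as a description. In DMSO, Syce1, a synaptonemal complex gene, was at 37.2 ± 5.48 CPM in TSC, with 2 counts over the XEN libraries and 1 over EpiSC. Taf7l, a germ cell transcription factor gene, was at 11.7 ± 1.27 CPM in TSC, with 0 counts in XEN, which allows up to 0.144 CPM, and 2 in EpiSC. Mov10l1, a helicase gene of the piRNA pathway, was at 7.76 ± 0.536 CPM in TSC, with 0 counts in XEN and in EpiSC, which allows up to 0.144 and 0.0725 CPM.

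Tdrkh departed from the others: it was at 15.7 ± 0.782 CPM in TSC, 33.3 ± 0.604 in EpiSC and 0.241 ± 0.0836 in XEN. Brdt was present in all lines, with 3.05 ± 1.78 CPM for XEN, 1.97 ± 0.439 for TSC and 1.37 ± 0.6 for EpiSC. Of the 7 genes below the count minimum, Dazl had 3 counts in XEN, 10 in TSC and 0 in EpiSC with DMSO, and Asz1 had 0 in all libraries. With STM2457 none of the 11 was called in any line by edgeR, with 1, 2 and 0 at an unadjusted p under 0.05 in XEN, TSC and EpiSC. DESeq2 called 0 of the 4 to which it gave an adjusted p.

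**Figure D5:**
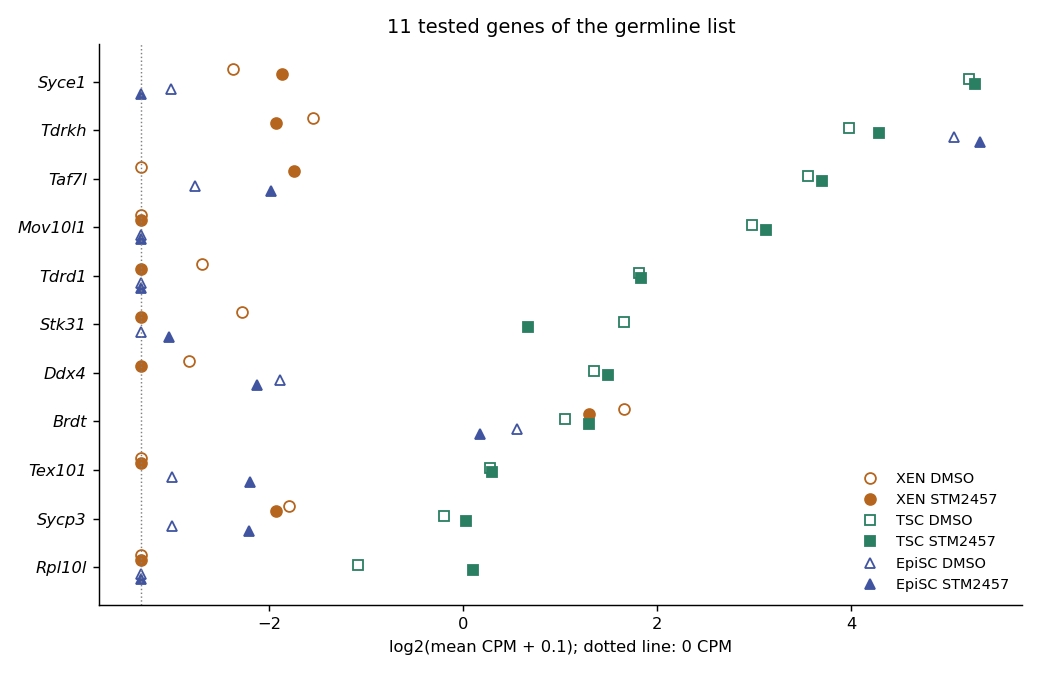
Mean level of the 11 tested germline genes in each line and arm, on the scale log2(CPM + 0.1), with the dotted line at 0 CPM; open symbols are DMSO and filled symbols STM2457. TSC symbols lie to the right of XEN and EpiSC for 9 genes, the exceptions being Tdrkh, highest in EpiSC, and Brdt, highest in XEN with DMSO.

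The genes whose pattern over the 14 libraries was nearest to a member's were taken from 10471 protein-coding genes by the root mean square difference of log2 CPM, each gene centred on its mean. For Uhrf1 they were Srsf9, a splicing factor (0.0762), Pold1, the catalytic subunit of DNA polymerase delta (0.0801), and Rnf220 (0.0885), where the median over all genes was 0.664. For Dnmt1 they were Gpn3 (0.0913), Cnot10 (0.101) and Prpf6 (0.107), and for Dnmt3b Fbxl6 (0.0927), Gpn3 (0.102) and Dmap1 (0.103), the last being named for its binding to DNMT1. For Smchd1 they were Mapk8 (0.0795), Appl1 (0.0889) and Polr3k (0.092). The TET genes and Dnmt3a had more distant neighbours. For Tet3 they were Med13 (0.221), Dyrk1a (0.224) and Zfp369 (0.23), and for Tet1 Zfp30 (0.17), Rfx7 (0.18) and Tmem67 (0.183). Tet2 lay nearest to Lmln (0.126), Ube4a (0.149) and Wnk1 (0.154), and Dnmt3a about as far from Stk16 (0.139), Gins2 (0.145) and Epn2 (0.151). The median over all genes also differed between members and was largest for Tet3. The distances are therefore not given relative to a common spread.

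The members also differ in features that m6A is known to follow, long internal or last exons and GGAC, the core of its sequence motif, counted on the transcript strand only. In GENCODE M21, the longest exon of Tet1 has 8836 bases, that of Tet3 7453, of Dnmt3a 6838 and of Tet2 4512, at percentiles 99.2, 98.4, 97.8 and 90.6 of 14330 tested protein-coding genes, where the median was 1807. Dnmt1, Smchd1, Uhrf1 and Dnmt3b lie below that median, with 778, 877, 1131 and 1473 bases, as does Dnmt3l with 436. Uhrf1 has the most GGAC per kb of its longest transcript among the 8 tested members, 5.58, and Tet1 the fewest, 2.71, around a median of 4.07. The m6A marks themselves were not measured here.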

How the data were processed

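Mouse XEN, TSC and EpiSC libraries were assigned to 6 groups by their labels. The authors deposited 1 table of read counts, whole numbers without normalization. Per the submitters' processing notes, FastQC, Trim Galore, STAR, featureCounts and build GRCm39 were used; versions and the strand setting are not given in the sources used here. Names and exon lengths came by Ensembl identifier from GENCODE M21 (GRCm38), where 3281 of 55416 identifiers had no name, and promoter windows from RefSeq (GRCm38.p6).

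All 14 libraries entered 1 edgeR 4.0.16 fit (R 4.3.3) with TMM scaling, filterByExpr (minimum count 10, minimum total 15) and a robust quasi-likelihood F test, two-sided, with Benjamini-Hochberg adjustment over 18430 genes and a threshold of 0.05. Fold changes are log2 ± SE. DESeq2 1.42.0, RLE and ribosomal protein scaling, other filters, fits of single lines or arms, a replicate block and each library left out were alternatives. Intervals and upper limits cover 95% and 3 counts, and the limits concern counting error only.

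Same-numbered XEN libraries deviated together (r = 0.22, 0.376 and 0.337 over genes), so their numbers were taken as pairs; in TSC and EpiSC they did not (-0.00269 and -0.012). Replicates were checked for identical libraries: the chi-square of counts per degree of freedom was at least 2.175, so none was counted once with another. It was 9.285 to 24.05 between XEN replicates and 2.175 to 4.98 between those of TSC and EpiSC. All 9 genes are named, with Mettl3, Xist, up to 4 called genes of each of 7 related lists by smallest p, and the 3 nearest genes of each member. Fibroblast, EpiSC and germline genes given beside a result were taken from the marker and germline lists after their values were seen. The members and lists were chosen with earlier results of these data known.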

Additional observations from a re-analysis of the deposited data

How the results depend on the processing

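Counts of called genes moved more than the values of the members. From 764 genes in XEN, 178 in TSC, 309 in EpiSC and 2470 for the mean over lines (edgeR), the counts became 1573, 959 and 1160 in the single lines with DESeq2, 141, 83, 129 and 1383 with the ribosomal scaling, 332 in TSC and 585 in EpiSC with no filter on low counts, and 25, 4378 and 4321 in a fit of each line alone. The 3 differences between line effects, with 1, 2 and 1 genes for TSC minus XEN, EpiSC minus XEN and EpiSC minus TSC, gave 19, 45 and 25 with DESeq2, 9, 66 and 44 with no filter and 0 in each with the ribosomal scaling, and EpiSC minus XEN gave 0 with RLE size factors. Members called by DESeq2 numbered 1 in each line. With no filter 1 was called in TSC, beside 332 of 31825 genes, and 1 for the mean, beside 2561 of them. With the ribosomal scaling 0 were called for the mean, beside 1383 of 18430 genes. Fits of a line alone called 4 in TSC, beside 4378 of 14515 genes, and 4 in EpiSC, beside 4321 of 14800. A fit of the DMSO libraries alone called 2 for EpiSC against TSC, beside 9339 of 17469 genes. Why these counts moved was not tested.

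The replicate block, with the number as a block in every line, gave 2447, 2036 and 2427 of 18430 tested genes in XEN, TSC and EpiSC. It gave 4722 of them for the mean and 56, 179 and 111 for the differences between line effects. Beside these counts, it called 2 members in TSC, 2 in EpiSC and 4 for the mean. In TSC and EpiSC the libraries share only a number. The block in XEN only was chosen after seeing the data, because same-numbered libraries deviated together there. The labels do not say what a number shares. That block gave 2909, 2830 and 3175 genes, 5283 for the mean and 175, 401 and 274 for the differences. Members called under it were 3 in TSC, 3 in EpiSC, 5 for the mean and 1 each for EpiSC minus XEN and EpiSC minus TSC. The shares of all tested genes there were 15.4%, 17.2%, 28.7%, 2.18% and 1.49%. No member was called in XEN under either block.

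Among members, 261 of the alternative values for single lines kept their sign and side of the threshold, 22 gained a call and 21 changed sign. For the mean over lines these numbers were 133, 10 and 2, and 23 lost the call. For the lines in DMSO they were 227, 5 and 11, and 13 lost it, and for the differences between line effects 361, 2 and 29. Signs changed with the ribosomal scaling for Dnmt3b in XEN (-0.04) and TSC (0.04), Tet2 in TSC (0.13), Tet3 in EpiSC (0.10), Dnmt3a in the mean (0.03), Dnmt1 (0.14), Uhrf1 (0.12), Dnmt3b (0.08) and Smchd1 (0.15) in TSC minus XEN, and Dnmt1 (0.14) and Tet3 (0.08) in EpiSC minus XEN. In DMSO they changed for Dnmt1 (-0.42), Uhrf1 (-0.05) and Dnmt3b (-0.61) in TSC over XEN, Dnmt1 (-0.22), Dnmt3a (-0.26) and Dnmt3b (-0.27) in EpiSC over XEN, and Dnmt1 (0.20) and Tet3 (0.01) in EpiSC over TSC. Dnmt3b in XEN was at -0.01 with DESeq2 and RLE size factors and 0.00 with no filter, and Tet2 in TSC at 0.00 with DESeq2, RLE and a fit of TSC alone.

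With each library left out in turn (in TSC and EpiSC 1 sample then stands alone in its arm and is assumed to vary like the other groups), genes called ran from 414 to 1048 in XEN, 3 to 12 in TSC, 7 to 17 in EpiSC and 1404 to 3247 for the mean, and for the differences from 0 to 1, 0 to 4 and 0 to 1. Members called ran from 0 to 4 for the mean and from 1 to 3 in EpiSC over TSC with DMSO. Treatment effects that crossed or reached 0 were, in XEN, Uhrf1 (-0.14 to 0.00), Dnmt3b (-0.08 to 0.12), Tet1 (-0.32 to 0.26) and Tet3 (-0.09 to 0.29), Tet2 in TSC (-0.19 to 0.20), and Tet2 (-0.06 to 0.11) and Tet3 (-0.23 to 0.12) in EpiSC. The same held for the mean of Tet2 (-0.14 to 0.00), for Dnmt1 (-0.15 to 0.05), Dnmt3a (-0.08 to 0.11) and Smchd1 (-0.10 to 0.01) in TSC minus XEN, for Dnmt1 (-0.17 to 0.07), Tet1 (-0.15 to 0.43), Tet3 (-0.34 to 0.05) and Smchd1 (-0.02 to 0.09) in EpiSC minus XEN, and for Dnmt1 (-0.10 to 0.13) and Tet2 (-0.18 to 0.20) in EpiSC minus TSC. In DMSO it held for Tet1 in EpiSC over XEN (-0.36 to 0.22), and for Dnmt1 (-0.19 to 0.03) and Uhrf1 (-0.01 to 0.10) in EpiSC over TSC. Depth limits Dnmt3l, with at most 8 counts a library; XEN was the shallowest line.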
